A study of Mus musculus with 120 samples.

Results

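The cells described here are 11 mouse group 2 innate lymphoid cells (ILC2s) that were labelled silent for interleukin (IL)-13 after stimulation, and the 5 resting ILC2s of the same experiment. They were chosen by label, as the cells of the IL-13 index in the silent and pre-stimulation states with at least 10000 reads in genes. Earlier results of these data were known when this choice was made. All 16 cells passed that minimum, and they are 16 of the 120 single cells of the series and 16 of the 60 cells of its IL-13 index. The ILC2s came from the pooled mesenteric fat of 20 wildtype C57BL/6 mice and were sorted as c-Kit+ Sca-1+ cells after depletion of lineage-positive cells. Per the methods of the study the sorted cells were kept in culture for several months with 10 ng/mL IL-2 before the experiment. The resting cells had therefore also seen IL-2. Pre-stimulation cells were recovered from the imaging platform before the stimulus was added. Silent cells had been given IL-2 and IL-33, each at 10 ng/mL, and showed no IL-13 secretion signal when they were recovered 8 h later, while activated cells from the same kind of experiment were secreting at that time. The comparison therefore asks what the mRNA of an ILC2 looks like after IL-2 and IL-33 when no IL-13 secretion was detected. Silent cells had also spent 8 h on the platform in new medium, and the series holds no unstimulated cell of that time. The stimulus therefore cannot be told apart from time and medium.

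ILC2s are tissue-resident lymphocytes without antigen receptors that answer epithelial alarm signals with type 2 cytokines. IL-33 binds the receptor chain ST2 (encoded by Il1rl1) and signals through MyD88, IRAK kinases and TRAF6 to NF-kB and AP-1, while IL-2 signals through JAK kinases to STAT5. In adipose tissue ILC2s are known for IL-5 and IL-13, which sustain eosinophils and alternatively activated macrophages.

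Each sample of the series is 1 cell, and no label ties a cell to an animal or a culture, so each group counts as 1 sample. No test between groups was therefore possible, and no p-value or standard error is given. Levels are counts per 1000000 gene reads (CPM), given per cell or for the reads summed over a group, and the 95% intervals (exact Poisson for a level, exact Clopper-Pearson for a ratio) cover counting error only. The reads carry no molecular identifiers, so they are not independent molecules. A cell held 164740 to 246131 gene reads before stimulation and 139108 to 321551 among the silent cells. A count of 0 in 1 silent cell allowed a level of 9.33 to 21.6 CPM, depending on its depth (3 reads), so 0 means not detected at that depth. The pre-stimulation cells all carried the first of 2 dates in the sample titles, as did silent replicates 1 to 5, while silent replicates 6 to 11 carried the second. The labels do not say what the dates are. Libraries were pooled in 5s or 6s before tagmentation, so pool and group cannot be told apart.

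A cell of the pre-stimulation group and 2 silent cells stood apart from the rest. Pre-stimulation replicate 1 held reads in all 30 genes of a cell cycle list, against 5 to 11 genes in the other 4, and its summed level of these genes was 37444 CPM against 698 to 2109 CPM. It also gave 3906 detected genes at 100000 reads, against 1437 to 2293. Resting is used here for all pre-stimulation cells and means before the stimulus, not outside the cell cycle. Silent replicates 6 and 8 were the only 2 of the 16 cells with reads in ILC3 markers, summing to 257 and 548 CPM. Activated replicates 8, 10 and 11 also had such reads, in 1 marker each, at 6.10, 4.34 and 2358 CPM. In silent replicates 6 and 8 ribosomal protein genes took 7.76% and 11.7% of reads, against 15.7% to 23.2% in the other 9 silent cells. Counts over all genes and several results on which these 3 cells bear are given with and without them.

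Most cells carried the markers of the ILC2 label, with silent replicates 6 and 8 going against it in part. These 2 had no Il1rl1 read, the lowest Gata3 of the silent cells, and reads in ILC3 markers. An Il1rl1 read was found in 8 of the other 9 silent cells, and a resting cell also lacked one. All 12 ILC2 markers had reads in both groups, with 8 to 12 markers detected in each pre-stimulation cell and 8 to 11 in each silent cell. The summed level of the list was 9068 to 20942 CPM before stimulation and 3709 to 9677 CPM in silent cells. In silent replicates 6 and 8 it was 7782 and 8994 CPM, above the silent median of 7131 CPM. NK cell and ILC1 markers were at 0 in all 16 cells, and of 11 adipose stromal and endothelial markers 1 had any read.

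Il13 itself (chromosome 11, 53631324 to 53634702, minus strand, mm10) was nearly absent from the silent cells at the mRNA level. Its product is the cytokine by which the cells were labelled. Before stimulation 1 read was found, in replicate 4 (5.93 CPM), and the other 4 cells were at 0. Among the silent cells replicate 1 had 58.5 CPM and the other 10 had no read. In the activated cells the lowest, median and highest levels were 33.4, 950.0 and 4064 CPM. The silent group held 11 reads against 1 before stimulation, a log2 ratio of 2.00 with an interval from -0.78 to 7.43, so no difference was detectable at this depth. The lowest activated cell lay below silent replicate 1 and above the other 10 silent cells.

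Other cytokine mRNAs of ILC2s were present in the silent cells. Of 20 cytokines listed, 4 reached the 50 CPM mean that was asked of a gene before it was compared, and of these Csf2 and Il5 were higher in silent cells by at least 4-fold, while the calls of Tnf (higher) and Il2 (lower) rested on 1 or 2 cells. The log2 ratio of Il2, the T cell growth factor gene, was -4.79, and -0.37 without pre-stimulation replicate 2. That of Tnf, 2.82, was 1.37 without silent replicate 8 and -2.58 with the silent cells of the first title date alone. Without silent replicates 6 and 8 the other 9 silent cells held 1 Tnf read, against 19 reads in resting cells, and the ratio with the floor of 3 reads was -3.79. For reference, 17.1% of the 2873 genes compared were at least 4-fold higher in silent cells and 14.2% were at least 4-fold lower. Il5 encodes the eosinophil growth factor IL-5. Before stimulation it was detected in replicate 1 (93.4 CPM) and was at 0 in the other 4 cells. In silent cells it ran from 0 to 805 CPM with a median of 66.5 CPM and was detected in 10 of 11 cells. Pre-stimulation replicate 1 lay above 7 of the 11 silent cells, and the other 4 resting cells lay below all silent cells with a read. The log2 ratio was 3.10 (2.50 to 3.77), or 5.61 without pre-stimulation replicate 1 and 2.35 without silent replicate 7, the highest cell. In activated cells Il5 ran from 4.88 to 2051 CPM with a median of 748 CPM.

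Csf2 and Ccl1 gave the clearest pair of secreted products, and both were carried by the same 4 silent cells. Csf2 (chromosome 11, 54247271 to 54249667, minus strand) encodes GM-CSF, a growth factor of myeloid cells. Before stimulation 1 read was found, in replicate 1 (4.06 CPM), and the other 4 cells were at 0. Silent replicates 1, 4, 7 and 9 had 4561, 1564, 1701 and 1862 CPM, replicate 2 had 71.9 CPM, and the other 6 cells lay at or below 4.75 CPM. The group ratio was 9.72 on the log2 scale, with a counting interval of 7.24 to 15.02 because it rests on 1 resting read. Ccl1 (chromosome 11, 82176657 to 82305690, minus strand) encodes the chemokine ligand of CCR8 and was the only 1 of 14 chemokines abundant enough to compare. Its only resting read lay in replicate 5 (4.63 CPM). Silent replicates 1, 4, 7 and 9 had 1298, 902, 1726 and 4387 CPM, replicate 11 had 129.9 CPM, and the other 6 lay at or below 9.33 CPM. The log2 ratio was 9.72 (7.25 to 15.03). With the resting group set to 3 reads it was 8.14, and 7.15 without silent replicate 9. Activated cells had higher medians, 4504 CPM for Csf2 and 5346 CPM for Ccl1, but the cells overlapped. Silent replicate 1 lay above the activated median of Csf2. All chemokines of activated replicates 3, 8 and 11 summed to 147, 253 and 618 CPM, below Ccl1 in the 4 high silent cells. The NF-kB adaptor gene Traf1 followed the same cells, at 505.5, 729, 576 and 550.1 CPM in silent replicates 1, 4, 7 and 9 and at 0 in the other 7 silent and all 5 resting cells. These 4 cells were picked out after their values were seen, and 2 of them carried each title date.

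The promoters of these 2 genes are shown because the Ccl1 window held an NF-kB (kB) consensus match and the Csf2 window did not. RefSeq promoters on GRCm38.p6 run from 250 bases before to 50 bases after the annotated start, on the strand of the gene, and capitals mark the motif matches. The Ccl1 window is chr11:82179763-82180062 (minus strand), and its 11 capital letters read as a kB match on both strands. The Csf2 window is chr11:54249850-54250149 (minus strand), and its capitals are the GATA motif AGATAA. These starts differ from the gene ends given above. The Csf2 window lies wholly upstream of its gene, and the Ccl1 window lies inside its gene span. Other starts of the 2 genes were not searched, so the contrast holds for these windows only.
Ccl1: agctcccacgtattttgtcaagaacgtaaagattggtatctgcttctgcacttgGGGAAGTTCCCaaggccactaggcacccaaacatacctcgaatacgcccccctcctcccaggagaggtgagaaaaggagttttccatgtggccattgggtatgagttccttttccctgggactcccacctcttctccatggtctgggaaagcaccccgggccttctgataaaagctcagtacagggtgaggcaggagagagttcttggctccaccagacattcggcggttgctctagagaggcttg
Csf2: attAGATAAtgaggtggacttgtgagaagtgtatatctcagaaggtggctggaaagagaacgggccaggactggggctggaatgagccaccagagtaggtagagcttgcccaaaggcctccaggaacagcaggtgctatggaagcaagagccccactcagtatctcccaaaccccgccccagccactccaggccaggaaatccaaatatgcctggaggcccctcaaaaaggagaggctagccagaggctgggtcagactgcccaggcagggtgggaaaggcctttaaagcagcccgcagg
The same search was run on the 12 largest increases named below, all of which had a promoter in the table. The kB consensus was found in 2 of 12 (Ccl1 and Pxdc1), against 9.55% of 27025 genes and 10.9% of the 2284 compared genes with a promoter in the table. The STAT motif TTCNNNGAA was found in 0 of 12, against 9.55% of all and 7.22% of compared genes. The AP-1 motif TGANTCA was found in 0 of 12, against 8.97% and 5.69%, and AGATAA in 1 of 12, against 12.7% and 7.62%. Each was searched on both strands. A match describes the letters of this window and is not a measured site.

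**Figure D1:**
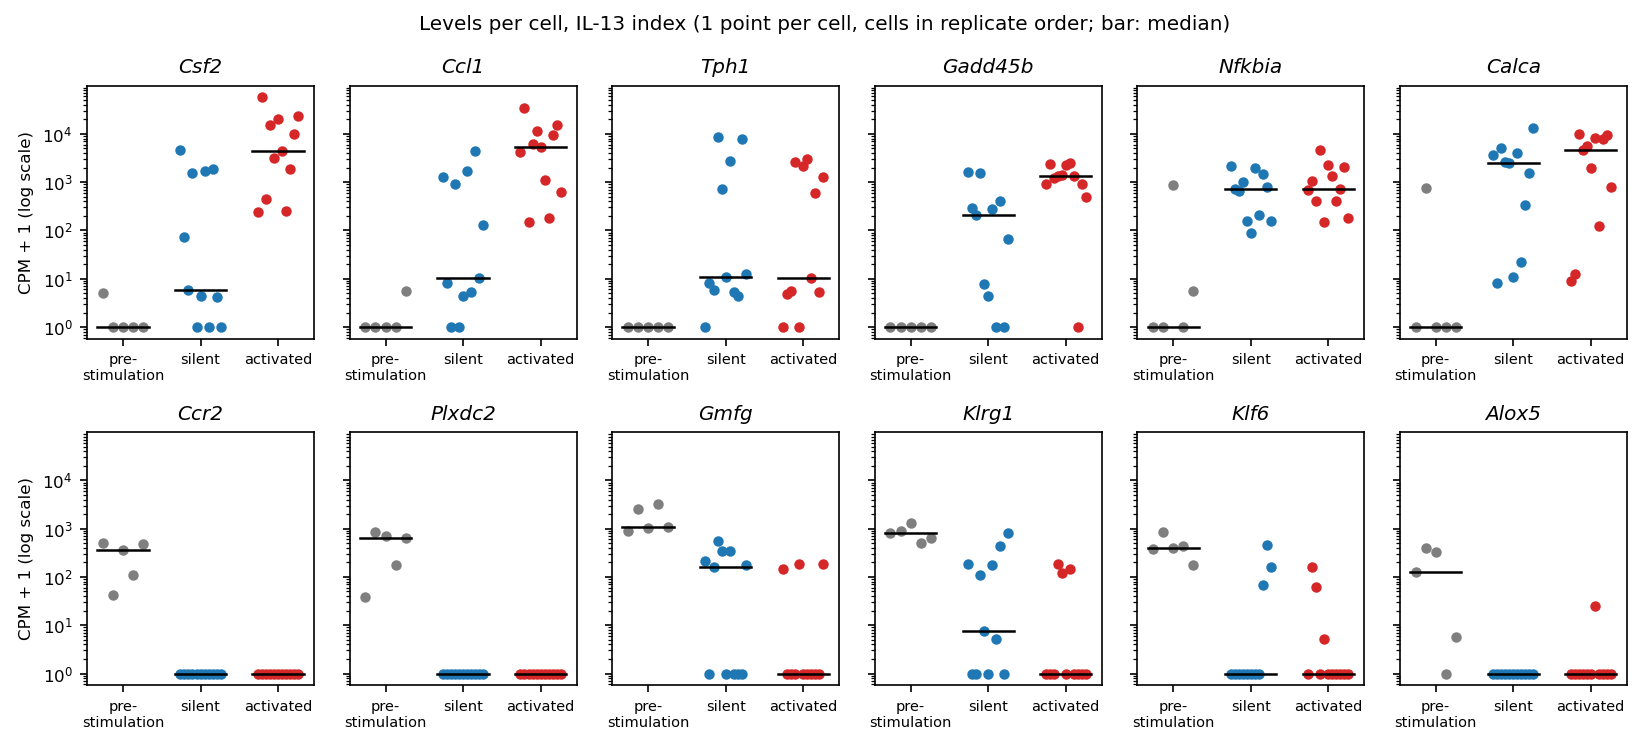
Level of 12 genes in each cell of the IL-13 index, as CPM + 1 on a log axis. Each point is 1 cell (5 pre-stimulation, 11 silent, 11 activated, in replicate order) and the bar is the group median. Csf2 and Ccl1 split the silent cells into 4 high cells and the rest, Calca had reads in all 11 silent cells and 1 resting cell, and Ccr2 and Plxdc2 were in all 5 resting cells and at 0 in all 22 stimulated cells.

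Over all genes, 492 were at least 4-fold higher and 409 at least 4-fold lower in silent cells among the 2873 genes that averaged 50 CPM or more across the pair of groups. The overlap between single cells was nearly complete. For 1 gene every silent cell lay above every resting cell (0.0348% of genes), and for 4 genes every silent cell lay below (0.139%). With silent cells of the first title date alone these counts were 16 and 11, and without pre-stimulation replicate 1 and silent replicates 6 and 8 they were 15 and 12. They were both 0 when the 5 resting cells of the IL-5 index were added to the resting group.

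The single gene above in every cell was G6pdx (chromosome X, 74409483 to 74429194, minus strand), which encodes glucose-6-phosphate dehydrogenase, the entry enzyme of the pentose phosphate pathway. All 5 resting cells were at 0. Silent cells ran from 7.64 to 943 CPM with a median of 240.0 CPM, so every silent cell had reads. The lowest of these levels lay under what 3 reads give in any cell compared (9.33 CPM or more). That silent cell is therefore not shown to exceed the resting ones. The silent group was at least 109.8-fold higher, taken against 3 reads over the resting group. Activated cells ran from 0 to 547 CPM with a median of 166 CPM. A closely similar retrocopy, G6pd2, exists in the mouse genome, and reads shared between the copies may not have been counted.

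Tph1 (chromosome 7, 46644641 to 46672537, minus strand) had the largest ratio when a group under 3 reads was set to 3 reads. It encodes tryptophan hydroxylase 1, the rate-limiting enzyme of serotonin synthesis outside the brain. All 5 resting cells were at 0. Silent replicates 4, 10, 7 and 5 had 8812, 7719, 2698 and 731 CPM, and the other 7 cells lay at or below 11.5 CPM. The silent group was at least 661-fold higher than the resting group. Leaving out silent replicate 10 gave a log2 ratio of 8.68 in place of 9.37. Silent replicates 4 and 7 were among the 4 highest cells for both Tph1 and Csf2, whereas replicates 5 and 10 had 0 and 3.11 CPM of Csf2 and replicates 1 and 9 had 0 and 3.42 CPM of Tph1. Activated cells ran from 0 to 2959 CPM with a median of 9.15 CPM.

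Calca, which encodes the neuropeptide CGRP, was detected in every silent cell, and was picked out after its values were seen. Before stimulation it was found in replicate 2 (741 CPM) and in no other cell. Silent cells ran from 7.19 to 13092 CPM with a median of 2546 CPM. Of the 11 silent cells 7 lay above the single resting cell with reads, and replicates 2, 6 and 8 had at most 21.2 CPM. The log2 ratio was 4.56 (4.30 to 4.83), 9.66 without pre-stimulation replicate 2 and 3.91 without silent replicate 11. Activated cells had a median of 4586 CPM.

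The other large increases named by rule were found in 8 to 10 of the 11 silent cells. Odc1, the rate-limiting enzyme of polyamine synthesis, was at 0 in all 5 resting cells and ran from 0 to 3266 CPM in silent cells with a median of 401 CPM, at least 236-fold higher. Without silent replicate 6 its log2 ratio was 7.03 in place of 7.88. Gadd45b, a gene induced by stress and NF-kB signalling, was at 0 in all resting cells and was detected in 9 of 11 silent cells with a median of 209 CPM and a highest level of 1591 CPM, at least 115.5-fold higher. Gfer, a sulfhydryl oxidase of mitochondria, was at 0 in resting cells and detected in 9 of 11 silent cells with a median of 277 CPM, at least 110.2-fold higher. Furin, the proprotein convertase, had 3 reads before stimulation, all in replicate 2 (17.8 CPM), and was detected in 10 of 11 silent cells with a median of 266 CPM, a log2 ratio of 6.38 (4.83 to 8.66). Pxdc1 was at least 87.0-fold higher and was detected in 9 of 11 silent cells. The glutamyl-prolyl-tRNA synthetase gene Eprs was at least 89.4-fold higher, with a log2 ratio of 6.48 and of 5.77 without silent replicate 7. Ctnnb1, which encodes beta-catenin, had 1 resting read and a log2 ratio of 8.08 (5.60 to 13.38). The sialyltransferase gene St6galnac3 had 4 resting reads and a log2 ratio of 6.59 (5.23 to 8.47).

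Genes of the NF-kB pathway were mostly higher in silent cells. Of 19 listed, 9 were compared: 6 were at least 4-fold higher, 1 at least 4-fold lower, and the median log2 ratio was 2.82 against 0.05 for all genes compared. The summed level of the list was 97.2 to 1554 CPM in resting cells and 539 to 4944 CPM in silent cells. Nfkbia, which encodes the NF-kB inhibitor IkBα and is itself an NF-kB target, was at 0, 0, 862, 0 and 4.63 CPM in the 5 resting cells. Every silent cell had reads, from 85.8 to 2203 CPM with a median of 726 CPM, and all silent cells lay above the 4 resting cells other than replicate 3. The log2 ratio of Nfkbia was 2.57 (2.33 to 2.83), and 7.88 without that resting cell. Nfkb2, the p100 subunit gene, was at 0 in resting cells and detected in 7 of 11 silent cells, at least 84.9-fold higher. Nfkbib, another inhibitor gene, was at 0 in resting cells and detected in 10 of 11 silent cells with a median of 128 CPM, at least 51.3-fold higher. The adhesion molecule gene Icam1 had a log2 ratio of 2.82 that rested on silent replicate 9 (834 CPM), and was 0.36 without it. The exception was Nfkbid, with a log2 ratio of -3.96, which was 1.07 without pre-stimulation replicate 4 (699 CPM).

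AP-1 and immediate early genes had a median log2 ratio of 2.51 (1.71 without pre-stimulation replicate 1 and silent replicates 6 and 8) over the 6 of 26 that were compared, with 3 at least 4-fold higher and 0 lower. The 3 were Gadd45b, Myc and Batf3. Myc, the growth regulator, was at 0, 88.9, 30.4, 0 and 0 CPM in the resting cells and was detected in 6 of 11 silent cells, up to 821 CPM in replicate 7. Its log2 ratio was 3.12 (2.48 to 3.85), 4.84 without pre-stimulation replicate 2 and 2.16 without silent replicate 7. Batf3 was found in silent replicates 6 and 8 (617 and 429 CPM), at 3.82 CPM in replicate 11, and in no other of the 16 cells. Batf, a partner of AP-1 known in activated lymphocytes, stayed under 4-fold, with a log2 ratio of 0.91 (0.63 to 1.21), or 0.01 without silent replicate 4 and 1.52 without pre-stimulation replicate 5.

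Ribosome biogenesis genes leaned the same way throughout. All 17 of the 24 listed genes that were compared had a positive log2 ratio, 9 were at least 4-fold higher (17.1% of all genes were), 0 were lower, and the median was 2.49. Without pre-stimulation replicate 1 and silent replicates 6 and 8 the median was 2.34, with the first title date alone it was 1.89, and without silent replicate 9 it was 1.42. Nop16, a nucleolar protein gene, had 3 resting reads, all in replicate 4 (17.8 CPM). In silent cells it was detected in 8 of 11 cells, up to 295 CPM with a median of 80.9 CPM, and the log2 ratio was 5.05 (3.48 to 7.33). Wdr43 was at 0 in resting cells and detected in 7 of 11 silent cells with a median of 124 CPM, at least 39.2-fold higher. Nop58, a core protein of box C/D snoRNPs, was at 48.8, 0, 36.4, 5.93 and 120.3 CPM before stimulation and between 0 and 777 CPM in silent cells, with a median of 171 CPM. For Nop58 the log2 ratio was 2.49 (2.05 to 2.95), and 3.36 without pre-stimulation replicate 5. Dkc1, the pseudouridine synthase dyskerin, was at least 66.2-fold higher, with a log2 ratio of 6.05 and of 5.40 without silent replicate 6. Bop1 fell below 4-fold, to 1.66, without that same silent cell. The summed level of the list was 1574 to 6417 CPM in resting cells, the highest being replicate 2, and 1901 to 9291 CPM in silent cells.

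Chaperone and translation factor genes past 4-fold were likewise all higher in silent cells. Among heat shock proteins 13 of 19 listed were compared, 6 were at least 4-fold higher, 0 were lower and the median log2 ratio was 1.75. The cytosolic chaperone gene Hsp90ab1 was at 264, 0, 24.3, 444 and 616 CPM in resting cells and ran from 157 to 3390 CPM in silent cells with a median of 1204 CPM, a log2 ratio of 2.27 (2.09 to 2.45). The mitochondrial chaperonin gene Hspd1 was at 32.5, 0, 0, 225 and 4.63 CPM in resting cells and had a median of 224 CPM in silent cells. Its log2 ratio was 2.32 (1.90 to 2.78), and 4.43 without pre-stimulation replicate 4. Of 23 translation factors 22 were compared, 6 were at least 4-fold higher, 0 were lower and the median was 0.90. In the oxidative stress list 2 of 15 were higher and 0 lower, with a median of 0.92, and in glycolysis 1 of 10 was higher and 1 lower, with a median of 0.84. In these last 2 lists the share of genes at least 4-fold higher was below that over all genes.

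**Figure D2:**
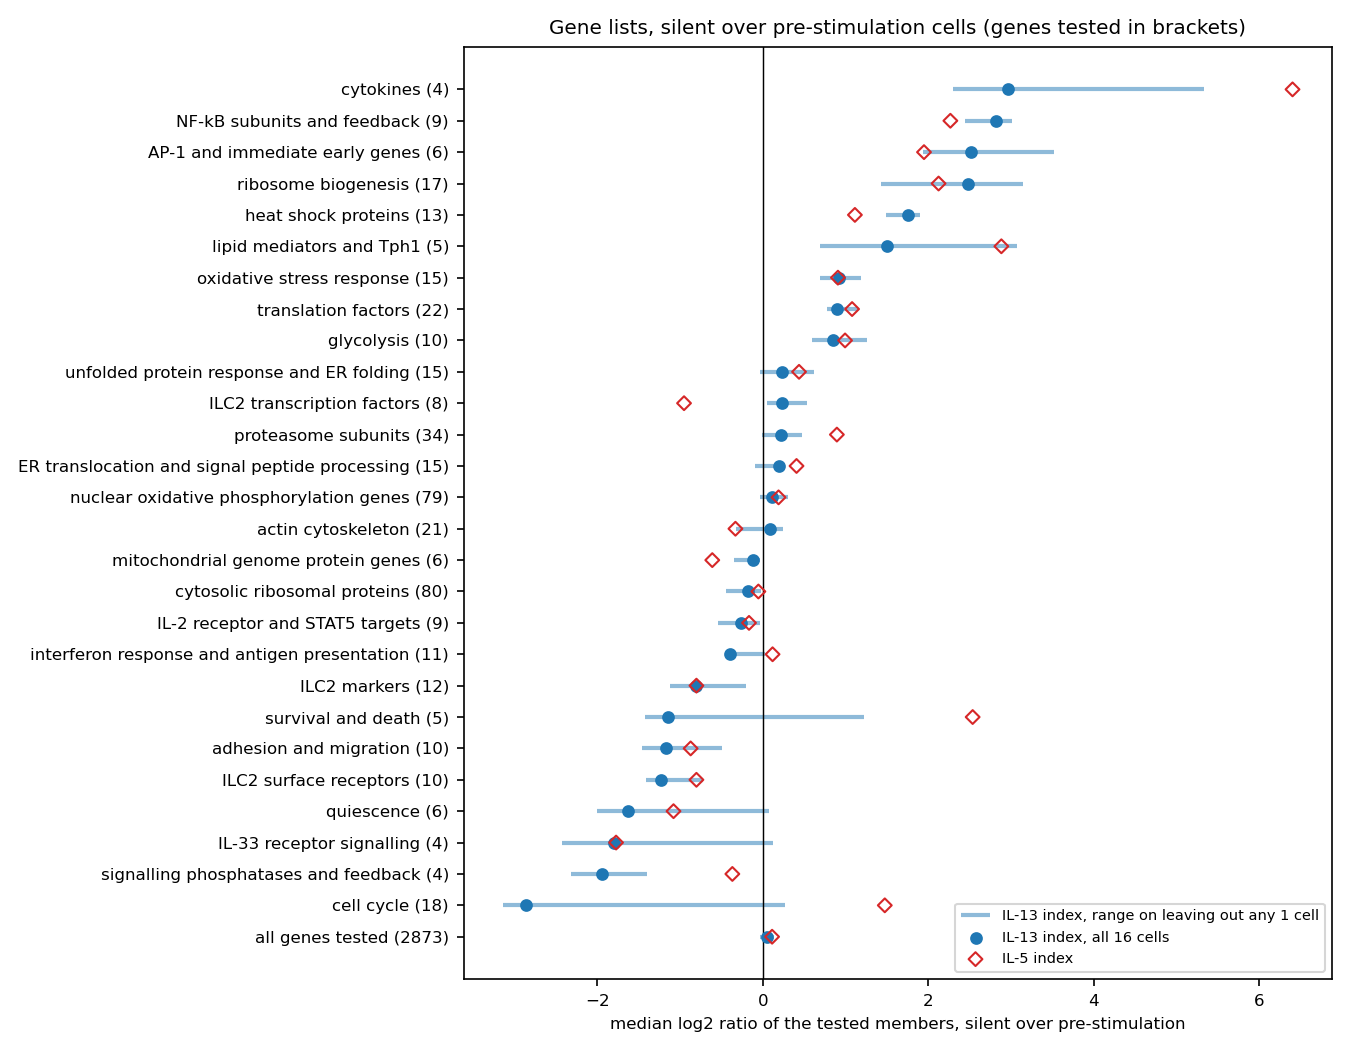
Median log2 ratio, silent over pre-stimulation cells, of the compared members of each gene list (number compared in brackets), with groups under 3 reads set to 3 reads. Filled points are the IL-13 index, bars the range when any 1 cell is left out, and open diamonds the IL-5 index. NF-kB, AP-1, ribosome biogenesis and heat shock lists lie to the right in both indexes, and the cell cycle list lies at -2.86 in the IL-13 index with a bar that reaches 0.27.

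Several of the largest decreases were genes present in all 5 resting cells and found in no silent cell. Ccr2 (chromosome 9, 124101950 to 124113557, plus strand) encodes the receptor of the chemokine CCL2. It was at 496, 41.5, 358, 107 and 486 CPM in the 5 resting cells and at 0 in all 11 silent and all 11 activated cells. The silent group was at least 285-fold lower. Plxdc2 (chromosome 2, 16356304 to 16755839, plus strand), a transmembrane protein gene, was at 36.6, 853, 692, 172 and 648 CPM in resting cells and at 0 in every silent and activated cell, at least 399-fold lower. Cd200r3 (chromosome 16, 44943678 to 44981380, plus strand), a receptor known on mast cells and basophils, was at 345, 326, 6.07, 1392 and 394 CPM and at 0 in every silent and activated cell, at least 422-fold lower. Leaving out pre-stimulation replicate 4 gave -7.97 in place of -8.72 on the log2 scale. Its lowest resting level, 6.07 CPM, lay under the 9.33 CPM or more that a count of 0 allowed in a silent cell. That resting cell is not shown to exceed the silent ones. The fourth gene without overlap was Gmfg, which encodes an actin regulator of blood cells. It was at 898, 2601, 1032, 3164 and 1079 CPM in resting cells and between 0 and 564 CPM in silent cells, with a median of 162 CPM, a log2 ratio of -3.41 (-3.57 to -3.26).

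Among the other leading decreases, Alox5, the 5-lipoxygenase of leukotriene synthesis, was at 126, 403, 322, 0 and 4.63 CPM in resting cells and at 0 in all silent cells, at least 140.0-fold lower. Ighm, an immunoglobulin heavy chain gene, was at 130.0, 409, 273, 0 and 556 CPM in resting cells and at 0 in all silent cells, at least 243-fold lower. No other of the 7 B cell markers had a read in either group. Of 10 mast cell and basophil markers 2 had reads, Cd200r3 and Fcer1a, with a summed level of 6.07 to 1732 CPM in resting cells and 0 in silent cells, while defining markers such as Cpa3 and Mcpt8 were at 0 in all 16 cells. Fcer1a rested on pre-stimulation replicate 5 (1338 CPM). The part of these markers in the other decreases was not tested. The glycoprotein gene Lgals3bp had a log2 ratio of -8.33, and of -6.78 without pre-stimulation replicate 2. The cell division genes Birc5, Stmn1 and Lockd and the galectin gene Lgals1 were led by pre-stimulation replicate 1, without which their log2 ratios were -2.62, -0.88, -1.88 and -4.35.

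Most ILC2 markers stayed under 4-fold between silent and resting cells, as did most genes compared. Of the 12 markers 9 had a negative log2 ratio, with a median of -0.80. At least 4-fold lower was 1, and 2 (Rora and Thy1) were at least 4-fold higher, where 14.2% and 17.1% of all genes were. The lower one was Klrg1, an inhibitory receptor of mature ILC2s, at 796, 877, 1287, 516 and 625 CPM in resting cells. In silent cells it was found in 7 of 11, up to 798 CPM in replicate 11, with a median of 6.65 CPM, and only replicate 11 reached the resting range. Its log2 ratio was -2.24 (-2.41 to -2.07), -2.98 without replicate 11 and -1.91, under 4-fold, without silent replicates 6 and 8. Ly6a, which encodes the Sca-1 used in the sort, was at 4424 to 9372 CPM in resting cells and at 4.25 to 6029 CPM in silent cells with a median of 2018 CPM, a log2 ratio of -1.49 (-1.54 to -1.44). Il1rl1, the IL-33 receptor chain, was at 297, 456, 2968, 0 and 894 CPM in resting cells and from 0 to 1483 CPM in silent cells with a median of 482 CPM, a log2 ratio of -0.84 (-0.97 to -0.72), and the groups overlapped. Without pre-stimulation replicate 3 the ratio of Il1rl1 was 0.17. Gata3, the transcription factor that defines ILC2s, had reads in every cell and a log2 ratio of -0.48 (-0.59 to -0.36), or -1.32 without silent replicate 11. In the other direction Rora, a transcription factor needed for ILC2 development, was at 16.3, 77.0, 340.0, 0 and 69.5 CPM in resting cells and was detected in all 11 silent cells with a median of 513 CPM. The ratio of Rora was 2.61 on the log2 scale (2.30 to 2.94), and 3.80 without pre-stimulation replicate 3. The hyaluronan receptor gene Cd44 was at 97.5 CPM in pre-stimulation replicate 1 and at 0 in the other 4 resting cells, and was detected in 10 of 11 silent cells with a median of 257 CPM. Its log2 ratio was 3.09 (2.50 to 3.74), and 5.67 without that resting cell. Thy1 was at least 4-fold higher over the group (2.08) and depended on silent replicates 6 and 8, being -1.23 without both, 0.76 without replicate 8, 3.00 without pre-stimulation replicate 1 and -1.42 with the first title date alone.

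Of 6 compared genes linked to quiescence 2 (Klf6 and Rgs2) were at least 4-fold lower and 0 higher, and the median log2 ratio was -1.63. Without pre-stimulation replicate 3 the median was 0.08. Klf6, a Krüppel-like transcription factor, was at 386, 847, 388, 444 and 176 CPM in resting cells. Among silent cells 8 of 11 were at 0, and replicates 9, 10 and 11 had 68.3, 460.3 and 157 CPM, so only replicate 10 was inside the resting range. On the log2 scale the ratio was -2.45 (-2.69 to -2.20), and -4.04 without replicate 10. Rgs2, a regulator of G protein signalling, was at 467, 824, 0, 0 and 449 CPM in resting cells and was found in silent replicate 6 alone (115.5 CPM), a log2 ratio of -4.78, and -8.15 without that cell. The adhesion and migration list had 3 of 10 genes at least 4-fold lower (Ccr2, Itgb7 and Itgb1) and 1 higher (Itgav), with a median of -1.17. The integrin chain gene Itgb7 was at 288, 0, 971, 0 and 1366 CPM in resting cells and was found in silent replicates 1 and 4 at 53.2 and 4.44 CPM, a log2 ratio of -7.04, -8.80 without silent replicate 1 and -6.21 without pre-stimulation replicate 5.

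For the receptor pathways of the stimuli few genes could be compared. In the IL-33 receptor signalling list 4 of 17 genes were compared, 1 was at least 4-fold higher (Tab2) and 2 were lower (Irak4 and Irak1), where 17.1% and 14.2% of all genes were. Both of the lower ones were led by pre-stimulation replicate 3, without which their log2 ratios were -3.31 and 0.09 in place of -6.49 and -2.75. The median of the list was -1.80, and 0.13 without that cell. Tab2, an adaptor of the TAK1 kinase, had a log2 ratio of 2.75, which was 1.46 without silent replicate 8, 0.61 without silent replicates 6 and 8, 5.48 without pre-stimulation replicate 2 and -2.51 with the first title date alone. In the list of IL-2 receptor chains and STAT5 targets 9 of 18 were compared, 0 passed 4-fold in either direction and the median was -0.26. Other lists had medians near that of all genes: 0.11 for nuclear oxidative phosphorylation genes, -0.18 for cytosolic ribosomal proteins, 0.22 for the proteasome, 0.24 for the unfolded protein response, 0.20 for endoplasmic reticulum translocation, 0.08 for the actin cytoskeleton, 0.23 for ILC2 transcription factors (-0.37 without pre-stimulation replicate 1 and silent replicates 6 and 8) and -0.12 for mitochondrially encoded genes. The median was -0.40 for interferon response and antigen presentation, 0.60 for sterol and fatty acid synthesis, -1.14 for survival and death, -1.95 for signalling phosphatases and 1.50 for lipid mediators with Tph1, over 11, 2, 5, 4 and 5 compared genes. The sterol and fatty acid median was 1.93 without pre-stimulation replicate 1 and silent replicates 6 and 8, and -0.16 without silent replicate 6 alone. The survival and death median was 0.35 without pre-stimulation replicate 3 and 1.22 without replicate 4, and the lipid mediator median was 3.07 without replicate 1.

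The cell cycle list had 12 of 18 compared genes at least 4-fold lower in silent cells and 0 higher, with a median log2 ratio of -2.86. This rested on 1 cell: without pre-stimulation replicate 1 the median was 0.27. Top2a, the topoisomerase of dividing cells, and Ube2c were at 0 in all 11 silent cells, and apart from replicate 1 the resting cells were at 0 too, except for 4.63 CPM of Top2a in replicate 5 and 5.92 CPM of Ube2c in replicate 2.

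Silent replicates 6 and 8 differed from the other silent cells in a set of genes of their own. Both had Fcer1g, the shared Fc receptor signalling chain, at 10540.0 and 4471 CPM, whereas no other silent cell exceeded 15.3 CPM and all resting and activated cells were at 0. Both had Ccr6, a chemokine receptor known on ILC3s and lymphoid tissue inducer cells, at 399 and 1490.0 CPM, and it was at 0 in the other 14 cells. Il17f, which encodes IL-17F, was at 158 and 543.5 CPM and at 0 in the other 14. The receptor gene Klrb1b was at 1227 and 807 CPM, and Tnf at 402.5 and 1045 CPM. Their Il1rl1 was at 0 and their Gata3 at 19.8 and 21.2 CPM, the lowest of the 11 silent cells. Ly6a was 1194 CPM in replicate 6 and 4.25 CPM in replicate 8. These genes were picked out after their values were seen. The group ratio of Tnf, 2.82, was 5.06 without pre-stimulation replicate 1 (77.2 CPM). Of other marker lists, T cell markers (chiefly Cd3g and Trbc2) reached 13.9 to 4453 CPM in resting cells and 0 to 4018 CPM in silent cells, with a median log2 ratio of -0.63 that was 0.85 without pre-stimulation replicate 1 and 1.17 without all 3 cells that stood apart, and myeloid markers were at 0 in resting cells and at most 295 CPM in a silent cell. Without silent replicates 6 and 8, 477 genes were at least 4-fold higher and 439 at least 4-fold lower.

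**Figure D3:**
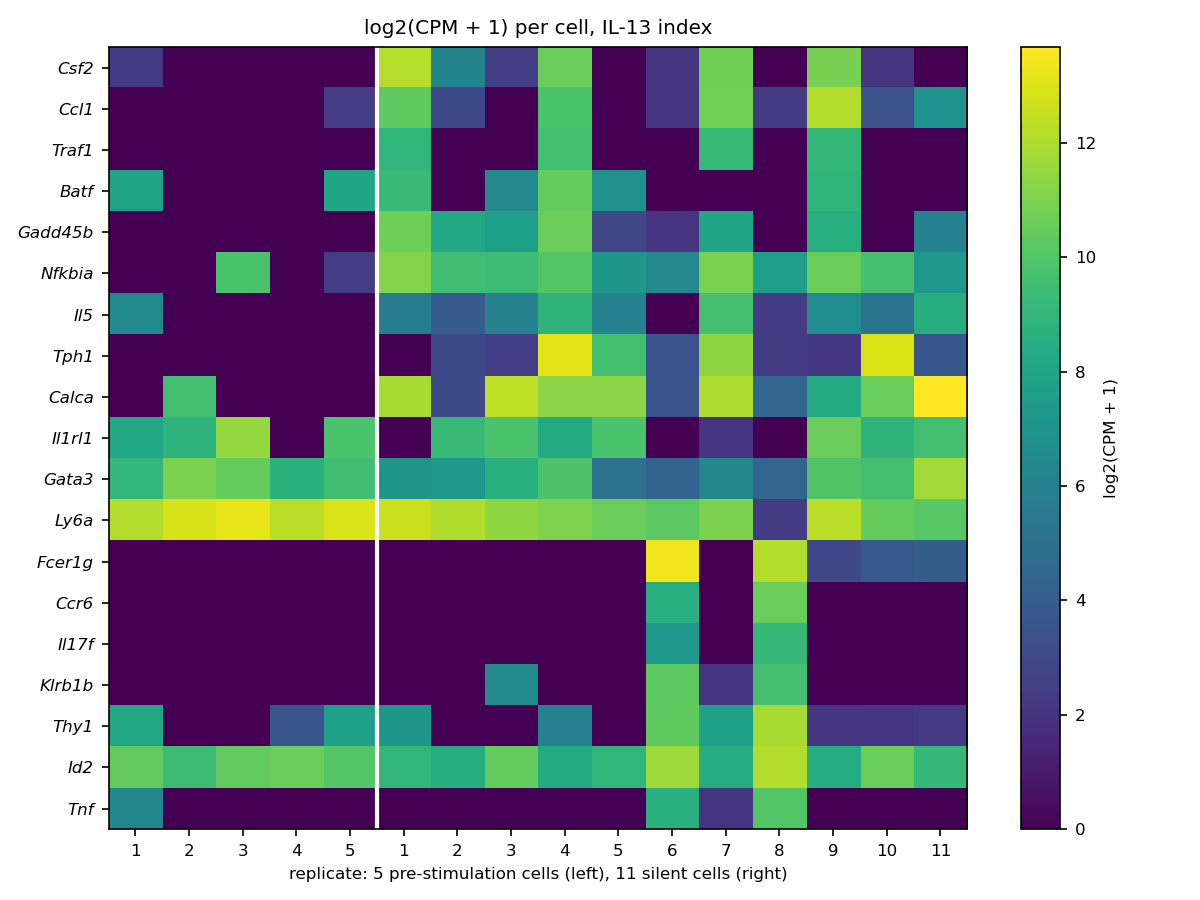
Level of named genes, as log2(CPM + 1), in the 5 pre-stimulation cells (left of the white line) and the 11 silent cells (right), numbered by replicate. Silent replicates 1, 4, 7 and 9 share high Csf2, Ccl1 and Traf1, and silent replicates 6 and 8 share Fcer1g, Ccr6, Il17f, Klrb1b, Thy1 and Tnf with no Il1rl1.

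To place the silent cells between resting and activated ones, a set of 403 activation genes was taken from other cells, as those at least 4-fold higher in activated than in pre-stimulation cells of the IL-5 index. They took 4.06% to 6.29% of the gene reads of the resting IL-13 cells, with replicate 1 the highest and the other 4 at or below 4.21%. In silent cells they took 4.87% to 10.5%, with a median of 7.40%, and in activated cells 11.7% to 27.5%, with a median of 16.6%. For comparison, 16.1% of 2641 genes were at least 4-fold higher and 20.5% at least 4-fold lower in activated than in resting cells of the IL-13 index, a contrast that shares its resting cells with the silent one. Every silent cell lay below every activated cell in its share of activation genes, and all silent cells lay above 4 of the 5 resting cells. Silent replicates 1, 4, 7 and 9, the cells with Csf2 and Ccl1, had 9.67%, 10.5%, 10.2% and 10.2%, and the other 7 had at most 8.07%. The activation genes include Csf2 and Ccl1, by which these 4 cells were picked. Without 5 cytokine genes (Il9, Csf2, Ccl1, Il13 and Il5) they had 9.07%, 10.2%, 9.74% and 9.56%, and the other 7 at most 8.06%. Silent and resting medians differed by 3.19 percentage points, and by 3.14 points without these 5 genes. Without those 5 genes the silent and activated cells overlapped: activated replicate 11 was at 9.42%, below silent replicates 4, 7 and 9 at 10.2%, 9.74% and 9.56%. At equal depth of 100000 reads a silent cell gave 1969 to 2798 detected genes (median 2357) and a resting cell 1437 to 3906 (median 1906). The medians differed by 451 genes, by 683 without thinning, by 294 when 5 reads were asked of a gene, and by 830 with silent cells of the first title date alone. Leaving out any 1 cell gave 257.5 to 582 genes, the lowest without pre-stimulation replicate 2 or 4.

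**Figure D4:**
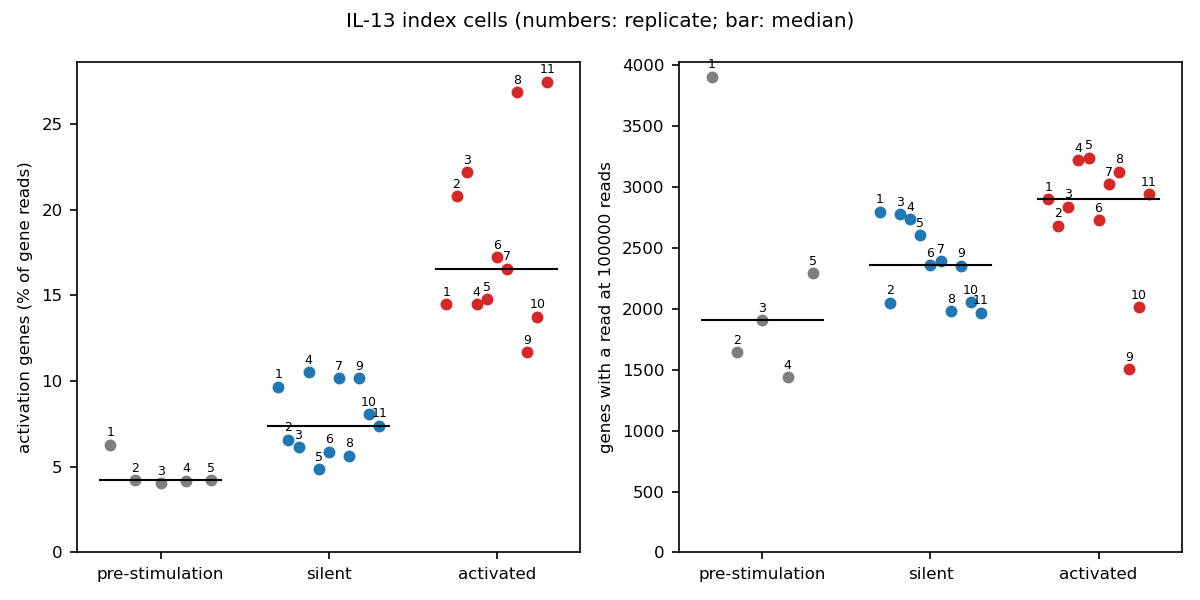
Share of gene reads in the 403 activation genes (left, percent) and genes detected after thinning to 100000 reads (right) in each IL-13 index cell, numbered by replicate, with the group median as a bar. Silent cells sit at 4.87% to 10.5%, all below the activated cells (without 5 cytokine genes the groups overlap, with activated cells from 9.42% and silent cells up to 10.2%), and pre-stimulation replicate 1 has the most genes of any cell.

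Some genes were high in silent cells and in neither resting nor activated cells. The transition cells of the index were not compared. By the 4-fold rule against both resting and activated cells 165 of 2873 genes (5.74%) were of this kind, and the 8 with the largest smaller fold were Fcer1g, Chad, Ckb, Igfbp7, Klrb1b, Zfand1, Cdk5rap2 and Ncoa7. In 6 of these 8 the level was carried by silent replicates 6 and 8. In the silent cells of the IL-5 index Fcer1g, Chad, Ckb, Klrb1b and Ncoa7 were at 0 CPM. Igfbp7, Zfand1 and Cdk5rap2 were at 27.1, 5.88 and 4.90 CPM there. The zinc finger gene Zfand1 was instead found in replicates 2, 6, 8 and 10 at 424, 455, 314 and 865 CPM, with 3.42 CPM in replicate 9 and 0 in every resting and activated cell, at least 66.8-fold higher than in resting cells. Its log2 ratio was 6.06, and 5.23 without replicate 10. Cdk5rap2, a centrosome gene, came from silent replicate 10 alone (1595 CPM) and was at 0 in the other 10. Without pre-stimulation replicate 1 and silent replicates 6 and 8 the count was 149, and it was 133 to 224 when any 1 cell was left out. It was far lower at a minimum mean of 200 CPM, as given in the last section.

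The same comparison was available in cells of the IL-5 index (10 silent and 5 pre-stimulation cells, none shared), where silent means no IL-5 secretion signal. Of the 492 genes higher in IL-13 silent cells, 59.3% also had a positive ratio in the IL-5 index, against 52.7% of all genes compared. Of the 409 lower genes, 44.3% had a negative ratio, against 43.6%. With this 50 CPM minimum the shares lay close to the background. With a minimum mean of 200 CPM 76 genes were called and 53 (69.7%) had the same sign, 71.1% of the higher and 68.4% of the lower ones, against 54.7% positive and 44.7% negative among all 797 genes at that minimum. In the IL-5 index 14.2% of its own 2825 compared genes were at least 4-fold higher and 18.1% lower, and of the 2873 genes compared in the IL-13 index 9.43% were higher there and 7.38% lower. The genes called higher in both numbered 74 (15.0% of the IL-13 list and 18.5% of the IL-5 list), those lower in both 47 (11.5% and 9.22%), and 33 and 13 genes went opposite ways.

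Several leading genes had ratios past 4-fold and of the same sign in both indexes. The log2 ratio in the IL-13 and IL-5 index, with groups under 3 reads set to 3, was 9.37 and 9.09 for Tph1. It was 8.14 and 9.02 for Ccl1, and 8.13 and 8.12 for Csf2. Gadd45b had 6.85 and 9.14, Furin 6.38 and 6.28, Pxdc1 6.44 and 7.03, and Calca 4.56 and 5.13. On the lower side Alox5 had -7.13 and -9.27. The protein kinase C theta gene Prkcq, picked out after its values were seen, had -6.57 and -7.64, the first being -5.14 without pre-stimulation replicate 3. Ccr2 had -8.15 and -4.35. Others did not carry over: St6galnac3 had 6.59 and -3.25, Cd200r3 -8.72 and 2.47, and the 1 gene without overlap among the increases, G6pdx, 6.78 and 1.71. By list, the medians in the IL-13 and IL-5 index were 2.82 and 2.27 for NF-kB, 2.49 and 2.13 for ribosome biogenesis, 1.75 and 1.11 for heat shock proteins, and -1.63 and -1.08 for quiescence, whereas 5 lists had medians of opposite sign: cell cycle (-2.86 and 1.47), survival and death (-1.14 and 2.54), ILC2 transcription factors (0.23 and -0.95), interferon response and antigen presentation (-0.40 and 0.12) and the actin cytoskeleton (0.08 and -0.33). In the IL-5 silent cells, which were not selected on IL-13, Il13 was found in 8 of 10 cells with a median of 232 CPM.

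**Figure D5:**
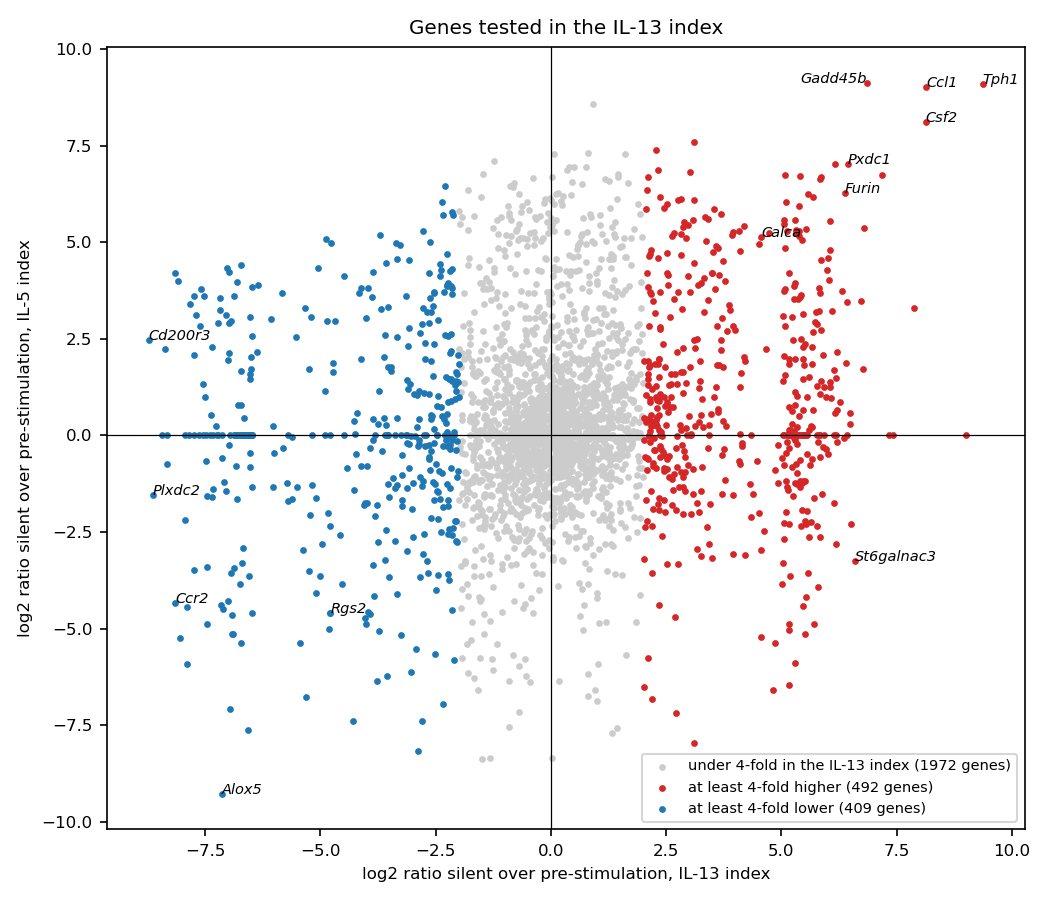
Log2 ratio of silent over pre-stimulation cells for each gene compared, in the IL-13 index (x axis) and the IL-5 index (y axis), with groups under 3 reads set to 3 reads. Colours mark genes at least 4-fold higher or lower in the IL-13 index. Tph1, Ccl1, Csf2 and Gadd45b lie at the upper right and Alox5 at the lower left, while St6galnac3 and Cd200r3 lie in opposite quadrants.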

How the data were processed

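The deposited files hold raw counts: the authors aligned 3' end reads of SMART-Seq v4 3' DE libraries, and counted reads per Ensembl gene with HTSeq, whose 5 summary entries close each file and were left out. Per the labels' processing notes the aligner was TopHat2 and the builds named are mm10 and GRCh38, of which mm10 is the mouse build. Versions, and whether counting used strand, are not given in the sources used here, so overlapping and antisense genes cannot be told apart. Gene reads were 57.4% to 66.7% of the entries of a file over the 16 cells.

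Here, reads were summed per group and scaled to CPM. A group under 3 reads was set to 3 for ranking and calls, and bounds written as at least N-fold use that floor, while a group with 1 or 2 reads is given with its own ratio. Genes with a mean of at least 50 CPM over both groups were compared, and called at 4-fold or more when the mean of the cells' own CPM had the same direction. The study used a rank test over cells with the same fold, which was not applied because cells are not replicates here. Replicate numbers follow accession order and only name a cell. Named genes were the 12 largest increases and decreases found in at least 70% of the cells of the higher group. These had the same direction (not the same size) on leaving out any 1 cell and with the first title date. The 8 widest gaps per direction, cytokines and chemokines with at least 3 reads, and up to 4 members per list and direction were also named. So were the 8 leading genes high in silent cells against both resting and activated cells. Not all are printed, and genes outside the rule are marked in the text. Cells, lists and rules were chosen with earlier results of these data known. Alternatives were other minimum levels, scalings (edgeR 4.0.16 TMM and DESeq2 1.42.0 size factors), a pseudocount of 10 CPM, the first title date, added resting cells and leaving out each cell. Python 3.11.15, pandas 2.3.3, scipy 1.17.1 and R 4.3.3 were used. The calculation was tested on simulated data.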

Additional observations from a re-analysis of the deposited data

Results flagged for a closer look

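A resting cell lay far from the other 4 in 5 of 38 measures checked (a gap over range above 0.71). This limit flags about 1 in 20 groups of 5 normally distributed values. Skewed sums, or sums that are mostly 0, need not follow that rate, so the count of flags was not weighed against it. In replicate 1 the cell cycle genes summed to 37444 CPM (others 698 to 2109 CPM) and the activation genes took 6.29% of reads (others 4.06% to 4.21%). In replicate 3 the IL-33 receptor signalling genes summed to 4298 CPM (others 184 to 931 CPM). In replicate 5 the chemokine genes summed to 4.63 CPM, which is 1 read of Ccl1 (others 0), and the lipid mediator genes to 389 CPM (others 668 to 707 CPM). No gene had groups without overlap in opposite directions in the IL-13 and IL-5 index.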

How the results depend on the processing

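No paired analysis was possible because the results come from no test and the replicate numbers follow accession order. The number of genes at least 4-fold higher in silent cells (492) and of genes at least 4-fold lower in silent cells (409) depended most on the minimum level of a gene: 2027 and 1119 at 10 CPM, 2393 and 1524 with none, 38 and 38 at 200 CPM, and 461 to 579 and 406 to 493 when any 1 cell was left out. TMM gave 501 and 404 and DESeq2 size factors 492 and 410. The genes above and below in every silent cell (1 and 4) were 16 and 11 with the first title date alone, 0 and 0 with the resting cells of both indexes, 1 to 6 and 4 to 10 when 1 cell was left out (most above without pre-stimulation replicate 1, most below without pre-stimulation replicate 1 or 4), and 15 and 12 without pre-stimulation replicate 1 and silent replicates 6 and 8, an alternative chosen after seeing the data. The difference in detected genes (451) was 830 with the first title date alone and 257.5 to 582 when any 1 cell was left out. The share with the same direction in the IL-5 index (52.5%) was 69.7% at 200 CPM and 56.1% without the 3 cells. The genes high in silent cells against both resting and activated cells (165) were 7 at 200 CPM. The Il13 ratio, 0.42 with the floor of 3 reads, and the activation gene difference moved by less than the spread between cells under every alternative run. Among the values past 4-fold given in the text the direction turned for the cell cycle list (0.27 without pre-stimulation replicate 1, -3.14 at the other end of leaving out 1 cell, 0.32 without the 3 cells), Nfkbid (1.07 without pre-stimulation replicate 4, -6.66 without silent replicate 1), Irak1 (0.094 without pre-stimulation replicate 3, -3.90 without silent replicate 3), and with the first title date alone Thy1 (-1.42), Tnf (-2.58) and Tab2 (-2.51), and without silent replicates 6 and 8, also chosen after seeing the data, Thy1 (-1.23) and Tnf (-3.79). Over the 126 compared genes at least 4-fold apart among all list members and named genes, 9 turned when 1 pre-stimulation cell was left out: Nfkbid, Irak1, Hk1, Irf9 and, without replicate 1, the cell cycle genes Cks1b, Hmgb2, Pcna, Rrm1 and Tyms. List medians under 4-fold that changed sign included IL-33 receptor signalling (0.13) and quiescence (0.08) without pre-stimulation replicate 3, survival and death (1.22 without pre-stimulation replicate 4), T cell markers (0.85 without pre-stimulation replicate 1) and several lists with medians near 0, and Il1rl1 was 0.17 without pre-stimulation replicate 3. The first title date alone shifted the median of all genes by -0.26. The causes were not tested.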
